A study of Mus musculus with 6 samples.

Results

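The TAM receptors are a family of receptor tyrosine kinases named after Tyro3, Axl and Mertk, and their main ligands are the secreted proteins Gas6 and Pros1 (protein S). The 5 genes were taken by symbol from the count tables, and all 5 had rows in all 6 libraries, 8 transcript rows in all. The tables hold 24063 symbols, 19893 of them with a row in every library. For each symbol the transcript row with the highest mean count was used. RNA had been sequenced from 3 libraries of primary tumour (PT) spheres and 3 libraries of early lesion (EL) spheres. PT spheres were grown from mammary tumours of mice older than 20 weeks, and EL spheres from mammary glands of mice aged 14 to 18 weeks in which no tumour could be felt. All mice were of the FvB strain and carried the MMTV-HER2/Neu transgene, in which a mouse mammary tumour virus promoter drives the Neu (Erbb2) oncogene in the mammary epithelium. Digested tissue from both sources was kept for 7 days in low-adhesion culture, with no sort given in the labels, so cells other than epithelium may be present. The labels do not tie libraries to individual mice, so the p-values cover the variation among these 6 samples, and that variation may be technical.

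A TAM ligand works as a bridge. Its amino-terminal Gla domain, once carboxylated with the help of vitamin K, binds phosphatidylserine on the surface of dying cells, and its carboxy-terminal end binds and activates the receptor. Gas6 activates Axl, Tyro3 and Mertk, whereas Pros1 activates Tyro3 and Mertk but not Axl. In macrophages, Mertk is best known for the uptake of dying cells, among them the epithelial cells shed during mammary involution. In carcinomas, Axl is known for its link to invasion, mesenchymal cell states and drug resistance.

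Total counts per library lay between 78054335 and 85126630 in PT and between 69759793 and 73654058 in EL, where the table of EL replicate 1 is incomplete and ends after 27664 of 33068 transcript rows. The libraries within a group correlated at 0.995 or above and those of different groups at 0.847 or below (log2 CPM over genes). EL replicate 1 was farther from the other EL libraries than they were from each other, with a chi-square per gene of 12.7 and 10 against 4.29, where counting noise alone gives about 1. Luminal markers were present in both groups, and of 4 lung surfactant genes, looked up because a tissue label of the EL samples names lung, Sftpa1, Sftpb and Sftpc together had at most 12 counts in any library. Sftpd, the fourth, had 3614 to 4050 counts in PT and 290 to 352 in EL.

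Promoter windows of the 4 members with the largest changes are shown because these genes form a receptor pair and a ligand pair whose members moved in opposite directions. Each holds the 250 bases before 1 start site in a table of promoters from RefSeq (GRCm38.p6), read 5′ to 3′ on the strand of the gene. The site is the first base of the RefSeq gene for Gas6, Pros1 and Mertk. For Tyro3 it lies 1774 bases inside the RefSeq gene, so the whole window is within the gene, and it is the first base of the GENCODE transcript matched to the counted row. For Axl the site lies 191 bases inside the RefSeq gene, as do 191 of the 250 bases of the window, and 46 bases before the matched GENCODE transcript. Capitals mark a GC box (GGGCGG, bound by Sp1) or a TEAD core (GGAATG) on either strand. The windows are chr7:25788734-25788983 on the minus strand for Axl, chr2:119799264-119799513 on the plus strand for Tyro3, chr8:13494536-13494785 on the minus strand for Gas6 and chr16:62854057-62854306 on the plus strand for Pros1.
Axl: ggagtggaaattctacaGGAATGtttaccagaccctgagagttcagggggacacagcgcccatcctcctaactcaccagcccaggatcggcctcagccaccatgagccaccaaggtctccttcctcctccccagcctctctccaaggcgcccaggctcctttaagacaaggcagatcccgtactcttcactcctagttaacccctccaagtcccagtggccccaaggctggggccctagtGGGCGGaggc
Tyro3: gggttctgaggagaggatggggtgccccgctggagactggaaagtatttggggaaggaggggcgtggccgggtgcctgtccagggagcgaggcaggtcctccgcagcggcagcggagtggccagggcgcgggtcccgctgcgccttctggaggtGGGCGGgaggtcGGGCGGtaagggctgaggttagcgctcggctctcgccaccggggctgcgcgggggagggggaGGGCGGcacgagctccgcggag
Gas6: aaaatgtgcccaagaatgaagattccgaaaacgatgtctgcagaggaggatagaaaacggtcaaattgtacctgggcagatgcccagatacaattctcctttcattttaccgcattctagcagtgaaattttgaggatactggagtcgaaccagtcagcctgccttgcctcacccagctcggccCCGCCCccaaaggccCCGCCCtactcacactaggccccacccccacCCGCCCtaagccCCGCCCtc
Pros1: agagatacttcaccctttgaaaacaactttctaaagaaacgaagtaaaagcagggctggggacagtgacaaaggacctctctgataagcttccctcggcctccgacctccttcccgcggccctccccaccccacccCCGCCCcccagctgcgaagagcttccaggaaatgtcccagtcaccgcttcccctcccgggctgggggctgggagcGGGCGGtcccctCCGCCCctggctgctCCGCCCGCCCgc
A GC box was found 1 time for Axl, 3 times for Tyro3, 4 times for Gas6, 5 times for Pros1, with 2 of these overlapping, and 3 times for Mertk. Of 32851 windows of this length in the RefSeq table, 32.7% held one. The GC box was thus present in windows of members that rose and of members that fell. The TEAD core, searched because human AXL is a known target of the YAP and TEAD factors, occurred once in the Axl window and in none of the other 4 windows, and 12.6% of all windows held it. Neither the AP-1 motif (TGANTCA), which 6.75% of all windows held, nor the palindromic E-box (CACGTG), which 6.02% held, occurred in any of the 5. Both strands were searched, and a match describes letters only.

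The receptors Axl and Tyro3 moved in opposite directions. Axl fell to 27.0 ± 1.71 CPM in PT, against 401 ± 4.59 in EL, and Tyro3 rose to 63.1 ± 0.294 CPM in PT, against 33.8 ± 1.89 in EL (CPM, TMM-scaled counts relative to library depth, mean ± SD, n = 3 each). Mertk, the third receptor, fell to 5.73 ± 0.774 CPM in PT, against 8.58 ± 0.368 in EL. The ligands also moved apart, since Gas6 rose to 969.9 ± 37.6 CPM in PT, against 226 ± 9.29 in EL, and Pros1 fell to 66.8 ± 1.496 CPM in PT, against 332 ± 4.06 in EL.

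All 5 members passed the count filter, and all 5 were called by edgeR's quasi-likelihood test at an adjusted p under 0.05, 2 higher in PT and 3 lower. Most genes differed between these groups: 80.7% of the 13844 genes tested were called, 39.9% higher and 40.8% lower. A call alone therefore sets no member apart, and the sizes and directions carry the description. For each of the 5 members the PT and EL libraries were fully separated, as they were for 82.7% of all genes tested. The median log2 fold change was -0.58 for the members and 0.00 for all genes. The members' median is the value of Mertk alone, and the members moved in both directions.

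**Figure D1:**
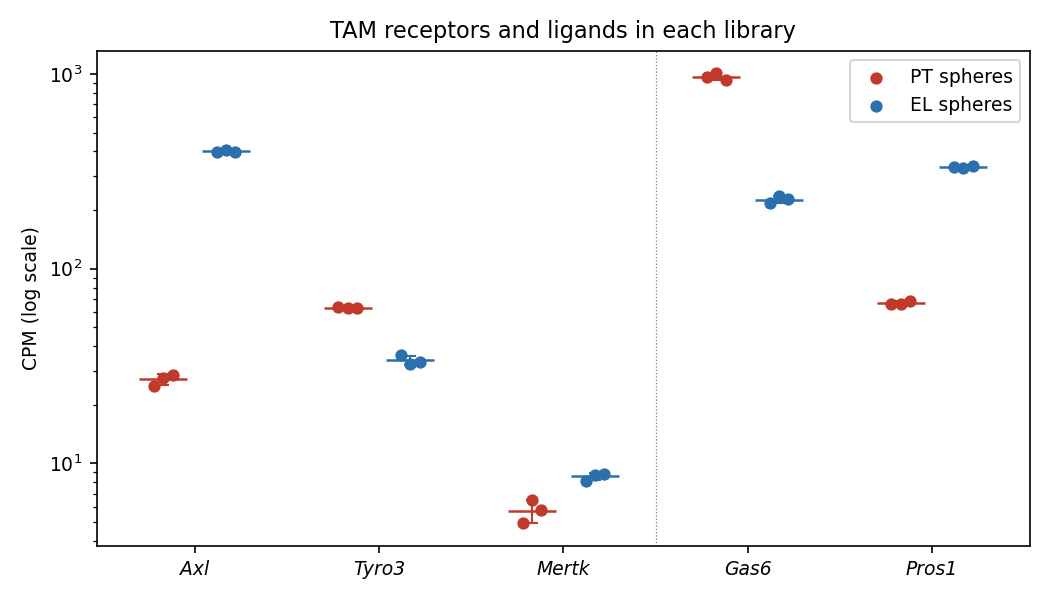
CPM (log scale) of the TAM receptors (left of the dotted line) and their ligands in each library, with PT spheres in red and EL spheres in blue. Points are libraries, horizontal lines are means and vertical bars are SD (n = 3 each). Axl and Pros1 lie lower in PT, Gas6 and Tyro3 higher and Mertk somewhat lower.

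Axl (GRCm38 chromosome 7, 25757273 to 25788705, minus strand, 20 exons in the transcript used) encodes the receptor that answers to Gas6 alone. It was at 25.1, 27.6 and 28.3 CPM in PT replicates 1 to 3, from 1286 to 1578 counts, and at 397, 406 and 399 CPM in EL replicates 1 to 3, from 16026 to 16165 counts. The groups lay far apart, and the libraries within each were close. The log2 fold change was -3.89 with an SE of 0.04 and an adjusted p of 3.51e-16 by edgeR, which makes Axl 14.8-fold lower in PT. Of the 13844 genes, 993 had a lower log2 fold change.

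Tyro3 (chromosome 2, 119797733 to 119818104, plus strand, 19 exons) encodes the receptor that is best known from the nervous system. It was at 63.4, 62.8 and 63.1 CPM in PT and at 36.0, 32.5 and 33.1 CPM in EL. Every PT library was above every EL library. The log2 fold change was 0.90 with an SE of 0.04 and an adjusted p of 3.69e-10 by edgeR, a 1.86-fold higher level in PT, and 1489 of the tested genes had a higher one. Against a minimum change of 2-fold, Tyro3 was not called.

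Mertk (chromosome 2, 128698956 to 128802894, plus strand, 19 exons) encodes the receptor of dying-cell uptake in macrophages. Its level was 4.93, 6.48 and 5.77 CPM in PT, from 253 to 346 counts, and 8.15, 8.76 and 8.82 CPM in EL, from 332 to 354 counts. The groups did not overlap, but PT replicate 2 came closest to EL. Mertk fell by 0.58 on the log2 scale (SE 0.10; adjusted p = 1.54e-04 by edgeR). The value was -0.33 when libraries were scaled by their totals alone, a scaling that raises the median of all genes by 0.25, and adjusted p-values over the alternatives other than a 2-fold minimum did not exceed 0.00731. An antisense gene and a small nucleolar RNA gene lie within the Mertk gene, and whether the counts used strand is not given in the sources used here.

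Gas6 (chromosome 8, 13465374 to 13494490, minus strand, 15 exons) encodes the ligand of all TAM receptors. It was at 967.8, 1008.5 and 933 CPM in PT, from 49629 to 53856 counts, and at 217, 236 and 227 CPM in EL, from 8835 to 9358 counts. Each PT library was well above each EL library. The log2 fold change was 2.10 with an SE of 0.04 and an adjusted p of 3.81e-14 by edgeR, or 4.28-fold higher in PT, and 297 genes had a higher one. Its 3′ end overlaps Tmem255b on the other strand over 3100 bases, and Tmem255b had at most 5 counts in a PT library and at most 8 in an EL library.

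Pros1 (chromosome 16, 62854307 to 62929346, plus strand, 15 exons) encodes protein S, also known as an anticoagulant cofactor in plasma. It was at 66.0, 65.8 and 68.5 CPM in PT and at 331, 328 and 336 CPM in EL. The spread within a group was a small part of the distance between the groups. The log2 fold change was -2.31 with an SE of 0.03 and an adjusted p of 1.66e-15 by edgeR, which makes Pros1 4.97-fold lower in PT, and 1558 genes had a lower one.

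**Figure D2:**
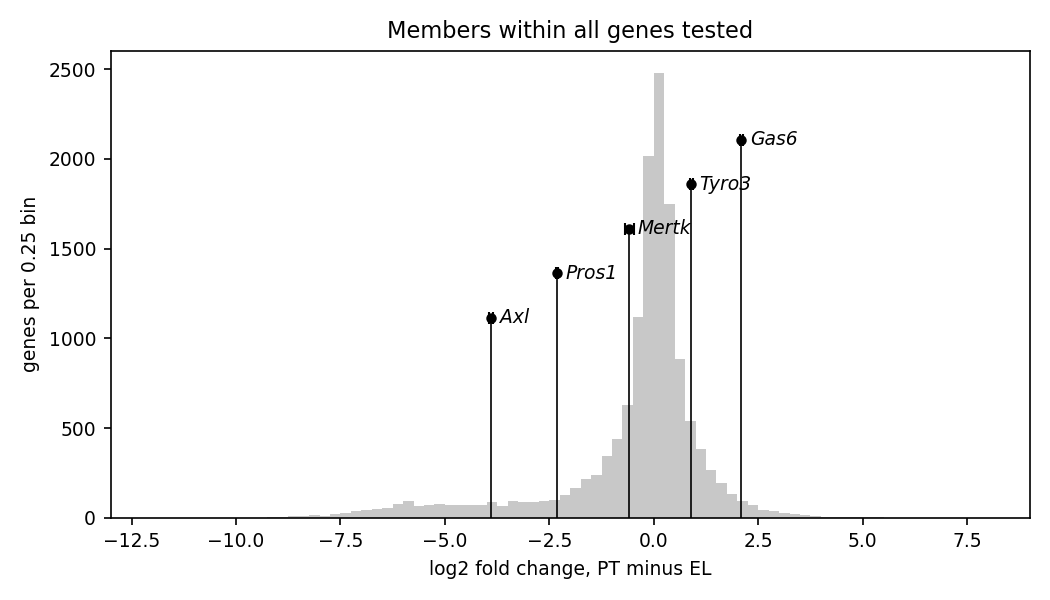
Histogram of the log2 fold change, PT minus EL, over all 13844 genes tested (grey, bins of 0.25), with the 5 members as black points with SE. Axl and Pros1 lie in the long lower tail, Mertk and Tyro3 nearer to 0 on either side of it, and Gas6 at 2.10 in the upper tail. By rank Tyro3 and Pros1 are alike, with 1489 genes higher than Tyro3 and 1558 lower than Pros1. The height of a point has no meaning.

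Levels of different genes can be compared only per length of transcript. In PT, Gas6 had 381 ± 14.8 CPM per kilobase, Pros1 20.2 ± 0.453, Tyro3 15.8 ± 0.0736, Axl 6.33 ± 0.401 and Mertk 1.33 ± 0.180 (mean ± SD, n = 3). No neighbours in that order overlapped. In EL, Pros1 had 100 ± 1.23 CPM per kilobase, Axl 94.0 ± 1.08, Gas6 88.9 ± 3.65, Tyro3 8.48 ± 0.475 and Mertk 1.99 ± 0.0855. The ranges of the first 3 of these did not overlap but stood close, at 99.4 to 102, 93.1 to 95.2 and 85.2 to 92.5, and their order rests on the transcript lengths taken from the annotation. The 3 receptors together came to 93.4 to 97.2 CPM in PT, against 441 to 447 CPM in EL. The 2 ligands together came to 1001.9 to 1074.4 CPM in PT, against 548 to 564 CPM in EL.

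Tyro3 held most of the receptor counts in PT and Axl in EL. Tyro3 contributed 65.9 ± 1.73% of the receptor counts in PT, against 7.64 ± 0.466% in EL, and Axl 28.2 ± 1.19% in PT, against 90.4 ± 0.400% in EL (SD, n = 3 each). Mertk held 5.97 ± 0.705% in PT and 1.94 ± 0.0783% in EL, so its share was larger in PT although its own level was lower. For Tyro3 in single libraries, the lowest share was 64.9% in PT (PT replicate 2, exact 95% interval 63.5 to 66.2%, from 5173 counts) and the highest was 8.16% in EL (EL replicate 1, interval 7.76 to 8.57%, from 17963 counts). Among the ligands, Gas6 held 93.5 ± 0.360% of the counts in PT, against 40.6 ± 1.12% in EL. Per kilobase, that share was 94.9 ± 0.286% in PT and 46.9 ± 1.15% in EL. Intervals cover counting error only.

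**Figure D3:**
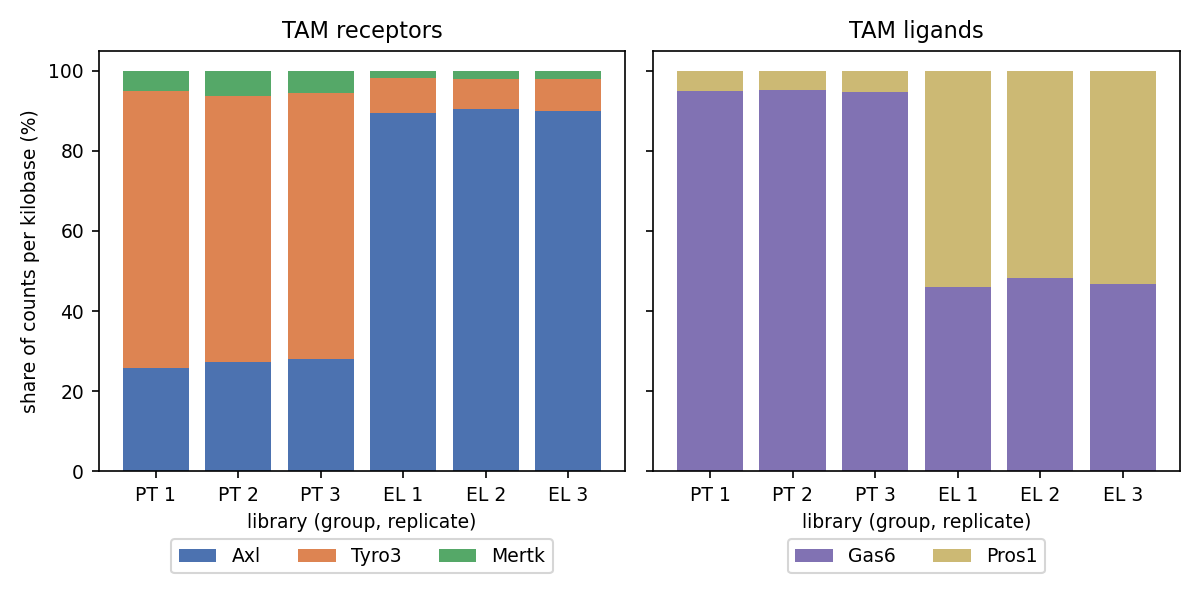
Share (%) of the summed counts per kilobase held by each TAM receptor (left) and each ligand (right) in every library, bars adding to 100%. Tyro3 takes the larger part of each PT bar and Axl of each EL bar, and Gas6 fills most of each PT bar but less than Pros1 in each EL bar.

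Ratios within a library do not depend on how libraries are scaled. There were 14.7, 15.3 and 13.6 Gas6 counts for each Pros1 count in PT replicates 1 to 3, against 0.656, 0.718 and 0.675 in EL. Axl gave 0.395, 0.439 and 0.449 counts for each Tyro3 count in PT, against 11.03, 12.5 and 12.1 in EL. Gas6 had 38.6, 36.6 and 32.9 counts for each Axl count in PT, against 0.547, 0.580 and 0.568 in EL. The log2 ratio of Axl to Gas6 was -5.17 ± 0.12 in PT and 0.82 ± 0.04 in EL (SD, n = 3 each), a difference of -5.99 and the largest of the 10 pairs of members. The difference was smallest for Tyro3 to Gas6, at -1.20. All 10 ratios separated the groups without overlap, beside 82.7% of all single genes tested by their CPM. The ratios come from 5 genes and are not independent, and the share over other gene pairs was not tested. For each ratio the two-sided exact permutation p was 0.1 and the adjusted p was 0.1, the smallest that 3 against 3 libraries allow.

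The genes whose pattern over the 6 libraries was most like that of a member were picked by the smallest root mean square difference of centred log2 CPM among 12801 genes. For Axl they were Mical1 (0.0417), Zeb2 (0.0511) and Zfp275 (0.0517), and for Tyro3 Homez (0.0269), Tkt (0.0273) and Taldo1 (0.0275). For Mertk they were Trpv2 (0.0436), Slc6a12 (0.0463) and Ctla2a (0.0524), all with a log2 fold change between -0.63 and -0.55. Gas6 was closest to Anxa3 (0.0255), Lcp1 (0.0351) and Map2 (0.0365), and Pros1 to Chsy1 (0.0285), Nynrin (0.0357) and Ppap2b (0.0361). Libraries within a group were close, so this measure mainly finds genes with a log2 fold change near that of the member. Shared regulation was not tested.

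Of 8 genes of vitamin K-dependent carboxylation and ligand processing, all tested, 7 were lower in PT and 1 was higher, beside 40.8% lower and 39.9% higher over all genes, with a median log2 fold change of -0.37 against 0.00 over all genes. Ggcx, the carboxylase that modifies Gla domains, fell to 18.8 ± 0.775 CPM in PT, against 71.2 ± 3.20 in EL (log2 fold change -1.92, SE 0.05). Vkorc1, which recycles vitamin K, fell to 24.9 ± 1.13 CPM in PT, against 75.8 ± 0.228 in EL (log2 fold change -1.60, SE 0.04). Calu, a reticulum protein that inhibits the carboxylase, fell by 1.40 (SE 0.04) on the log2 scale. The member that rose was Aifm2, a reductase of vitamin K, at 0.43 (SE 0.05). With library totals, 4 of the 8 were lower and 1 higher, and against a 2-fold minimum 3 were lower.

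Other proteins with a Gla domain were split, beside 39.9% higher and 40.8% lower over all genes. Of 12 listed and 8 tested, 4 were higher and 4 lower (median -0.47). Mgp, matrix Gla protein, fell to 29.3 ± 0.361 CPM in PT, against 232 ± 21.005 in EL (log2 fold change -2.99, SE 0.06). Among the transmembrane Gla proteins, Prrg4 rose by 1.76 (SE 0.05), whereas Prrg1 stood at -2.60 (SE 0.12) and Prrg3 at -4.58 (SE 0.19), both called lower. With EL replicate 1 or 3, or PT replicate 2 or 3, left out, 2 of the list were higher. The coagulation factor gene F2 had 0 counts in PT and 3 in EL.

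Of the proteases that shed TAM receptors, Adam17, which cleaves Mertk, was at 186 ± 2.84 CPM in PT and 176 ± 7.91 CPM in EL (difference of 0.08 in log2, SE 0.04, edgeR adjusted p = 0.0619). The Adam17 log2 fold change was called under 6 of the 18 alternatives, among them library totals (0.32), the replicate block (0.08, edgeR adjusted p = 0.0497) and the fit without EL replicate 3 (0.11). Adam10, which cleaves Axl, was lower by a log2 fold change of -0.27 (SE 0.04), a call that ended with library totals. Of 7 genes in the shedding list 4 were lower, 1 higher and 2 not called (median -0.14), beside 40.8% lower and 39.9% higher over all genes. With library totals 1 was lower and 4 higher, and leaving out EL replicate 3 gave 2 higher. Timp3, an inhibitor of Adam17, was the gene with the largest change, at 154 ± 6.72 CPM in PT and 2300.8 ± 457 CPM in EL (log2 fold change -3.90, SE 0.12). Rhbdf1, which escorts Adam17, was at -0.30 (SE 0.05) and was not called with library totals.

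Other receptors and bridging proteins for phosphatidylserine went both ways, beside 39.9% higher and 40.8% lower over all genes. Among 15 tested of 18 listed, 4 were higher, 8 lower and 3 not called (median -0.17). Mfge8, the bridging protein that milk fat globules carry, was at 1736 ± 7.50 CPM in PT and 1383 ± 38.4 CPM in EL (log2 fold change 0.33, SE 0.03). The integrin genes that receive Mfge8 fell, with log2 fold changes of -1.25 (SE 0.03) for Itgav, -1.73 (SE 0.04) for Itgb3 and -1.38 (SE 0.05) for Itgb5. Lrp1, an endocytic receptor that also signals engulfment, fell to 67.6 ± 0.937 CPM in PT, against 2608.8 ± 239 in EL (log2 fold change -5.27, SE 0.06). Megf10, an engulfment receptor of glia, fell by 3.47 (SE 0.07). The largest rise in the list was that of Thbs1, to 1396 ± 72.4 CPM in PT, against 396 ± 44.9 in EL (log2 fold change 1.82, SE 0.07).

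Of 11 genes listed for phosphatidylserine exposure, 9 were tested, beside shares of 39.9% higher and 40.8% lower over all genes. In this list 3 genes were higher, 3 lower and 3 not called (median -0.07). With library totals 6 were higher, and with complete tables only 6 were lower. The flippase genes Atp8a1 and Atp11a rose by 1.18 (SE 0.05) and 0.74 (SE 0.04). Xkr4, a scramblase relative, had 7 counts in PT and 162 in EL. Ano6, a scramblase, was at 194 ± 3.97 CPM in PT and 204 ± 5.70 CPM in EL and was not called. The Ano6 log2 fold change was -0.07, with -0.09 and a call without EL replicate 1, and 0.18 and a call with library totals. Ano6 was also called with RLE scaling factors (-0.08, edgeR adjusted p = 0.0408) and with the stricter count filter (-0.07, edgeR adjusted p = 0.0475). Xkr8, the scramblase cut by caspases, is absent from the incomplete EL table. In the 5 complete libraries it was at 4.43 ± 0.451 CPM in PT (n = 3) and at 6.07 and 6.82 CPM in EL (difference of -0.54 in log2, SE 0.11, edgeR adjusted p = 1.19e-04).

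Genes of the engulfment machinery were split, with 5 higher, 7 lower and 1 not called of 13 (median -0.15). Over all genes, 39.9% were higher and 40.8% lower. With library totals, 8 of the list were higher and 4 lower. Elmo1, which joins Dock1 to activate Rac, rose to 40.7 ± 1.04 CPM in PT, against 17.6 ± 0.0712 in EL. Its relative Elmo2 fell by 0.64 (SE 0.03) and the adaptor gene Gulp1 by 1.18 (SE 0.09), while Vav3, a Rac activator, rose by 0.45 (SE 0.04). Dock1 was at -0.15 (SE 0.03) and called lower, whereas with library totals its value was 0.09 and it was called higher (edgeR adjusted p = 0.0104).

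Downstream of the receptors, 14 signalling genes were tested, beside 39.9% higher and 40.8% lower over all genes. Of these 14, 5 were higher, 8 lower and 1 not called (median -0.16). With library totals, 7 of the list were higher and 5 lower. Pik3r1, the regulatory subunit of PI3 kinase, rose by 0.72 (SE 0.04) and Src by 0.70 (SE 0.03), whereas the adaptor gene Shc1 was at -1.49 (SE 0.03), Plcg1 at -0.74 (SE 0.04) and Tns2, a phosphatase that binds Axl, at -1.65 (SE 0.06), all called lower. Grb2, the adaptor of receptor tyrosine kinases, was at 90.2 ± 1.19 CPM in PT and 89.2 ± 3.71 CPM in EL and was not called, whereas the Grb2 log2 fold change was 0.26 and called with library totals. In dendritic cells TAM receptors act with the interferon receptor to induce suppressors of cytokine signalling. Of the 5 genes of that brake 4 were lower and 1 not called (median -0.73), beside 40.8% lower over all genes. Socs1 fell to 1.21 ± 0.0933 CPM in PT, against 8.38 ± 0.531 in EL (log2 fold change -2.79, SE 0.12), and Socs3 to 17.02 ± 2.00 CPM in PT, against 87.9 ± 11.2 in EL (log2 fold change -2.37, SE 0.09). Ifnar1, a chain of the interferon receptor, was at -0.29 (SE 0.03) and was not called with library totals.

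**Figure D4:**
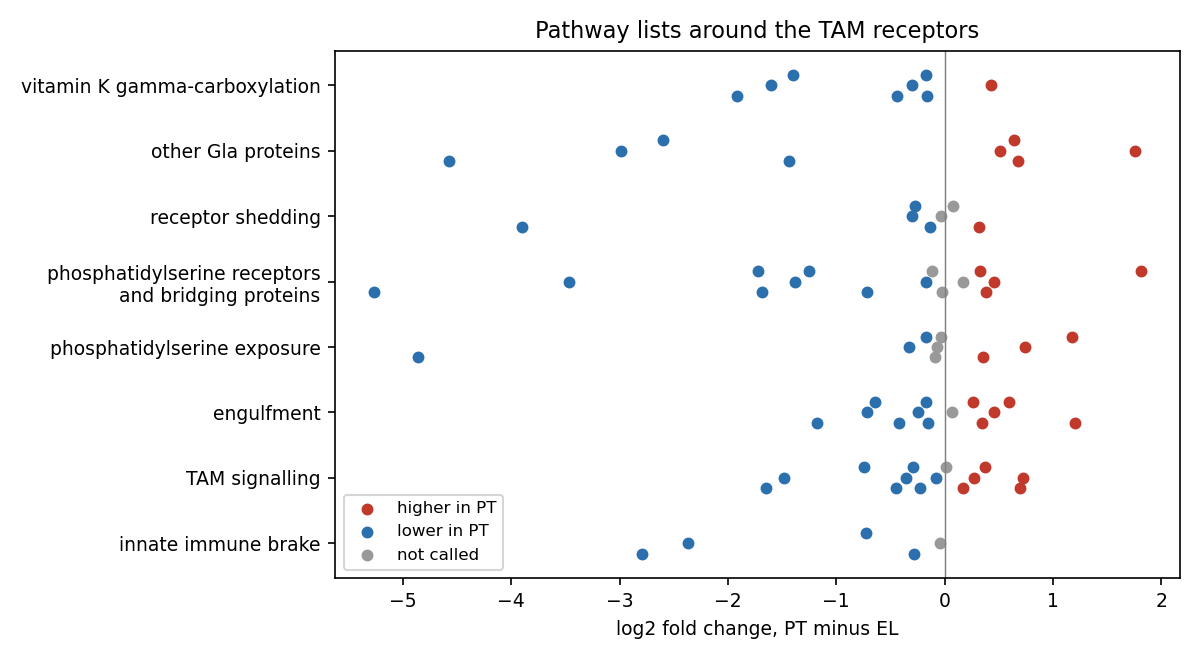
Log2 fold change, PT minus EL, of each tested gene in 8 lists around the TAM pathway, red where called higher in PT, blue where called lower and grey where not called. In the carboxylation list 7 of 8 points lie left of 0. The lowest point of all lists, Lrp1 at -5.27, is among the phosphatidylserine receptors and bridging proteins.

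Markers of several cell types moved with the members. The shares to set beside the marker counts are those over all genes, 39.9% higher and 40.8% lower. Each of the 10 fibroblast markers was called lower (median log2 fold change -6.39), and their summed level was 429 to 531 CPM in PT, against 55544.5 to 59317.6 CPM in EL. Pdgfra and Col1a1 stood at -5.69 (SE 0.06) and -6.74 (SE 0.07), both below the values of Axl and Pros1. All 10 endothelial markers were lower (median -5.67), summing to 15.9 to 19.4 CPM in PT and 220 to 233 CPM in EL, with Pecam1 at -7.45 and Cdh5 at -8.26. Flt1 and Vwf fell least, at -0.58 (SE 0.10) and -0.45 (SE 0.10). They made up most of the PT sum, at 9.29 ± 1.34 and 5.72 ± 0.653 CPM in PT, against 13.9 ± 1.07 and 7.80 ± 0.528 CPM in EL. All 6 pericyte markers were lower as well (median -3.34), with Rgs5 at -4.29. Notch3, which made up most of the pericyte sum in PT, fell least, at 96.4 ± 2.79 CPM in PT and 109 ± 0.744 CPM in EL (log2 fold change -0.18, SE 0.03). No marker of these lists was at 0 in either group. In bulk RNA, fewer cells of a type and less RNA per cell cannot be told apart, and the part of these cell types in the fall of Axl, Pros1 and Mertk was not tested.

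All 10 luminal epithelial markers were higher in PT (median 2.03), beside 39.9% of all genes. They summed to 12399 to 12624 CPM in PT and 3028 to 3088 CPM in EL. Epcam rose by 1.28 (SE 0.03) and Krt8 by 2.01 (SE 0.03), which stand beside 2.10 for Gas6 and 0.90 for Tyro3. Of 6 basal markers 2 were higher and 4 lower, and they summed to 437 to 468 CPM in PT and 458 to 505 CPM in EL. Krt5, among those lower, was at 0.143 ± 0.0270 CPM in PT and 52.5 ± 5.67 CPM in EL. The 2 that were higher were Oxtr, at 233 ± 8.57 CPM in PT and 20.3 ± 1.21 CPM in EL, and Krt14, at 178 ± 6.88 and 149 ± 5.90 CPM. The part of epithelial content in the rise of Gas6 and Tyro3 was not tested.

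Macrophage markers went the other way from Mertk. Of 12 such markers 11 were higher in PT and 1 was not called (median 1.03), beside 39.9% higher over all genes. The markers summed to 738 to 772 CPM in PT and 354 to 385 CPM in EL. Most of both sums was Cd14, at 481 ± 4.99 CPM in PT and 240 ± 3.87 CPM in EL. C1qa rose by 2.51 (SE 0.09) and Adgre1, the F4/80 antigen gene, by 0.89 (SE 0.11), while Csf1r was at 18.1 ± 1.95 CPM in PT and 16.2 ± 1.90 CPM in EL (adjusted p = 0.115 by edgeR). The Csf1r log2 fold change was 0.17, and it was called with the replicate block (edgeR adjusted p = 0.0155), with upper-quartile factors (0.22), with library totals (0.41) and without PT replicate 1 (0.25). Among 8 dendritic and lymphoid markers 5 had no count in PT and 2 had none in EL, and Flt3 had 0 counts in PT and 6 in EL. The only one tested was Zbtb46, at 3.18 ± 0.0487 CPM in PT and 6.68 ± 0.856 CPM in EL (log2 fold change -1.07, SE 0.11), which was called lower. Of the 5 adipocyte markers 3 had no count in PT and 1 had none in EL, with Adipoq at 0 counts in PT and 10 in EL. The only one tested was Fabp4, with 374 counts in PT and 2700 in EL (log2 fold change -3.26, SE 0.09), also called lower. Which cells made the Mertk transcripts was not tested.

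**Figure D5:**
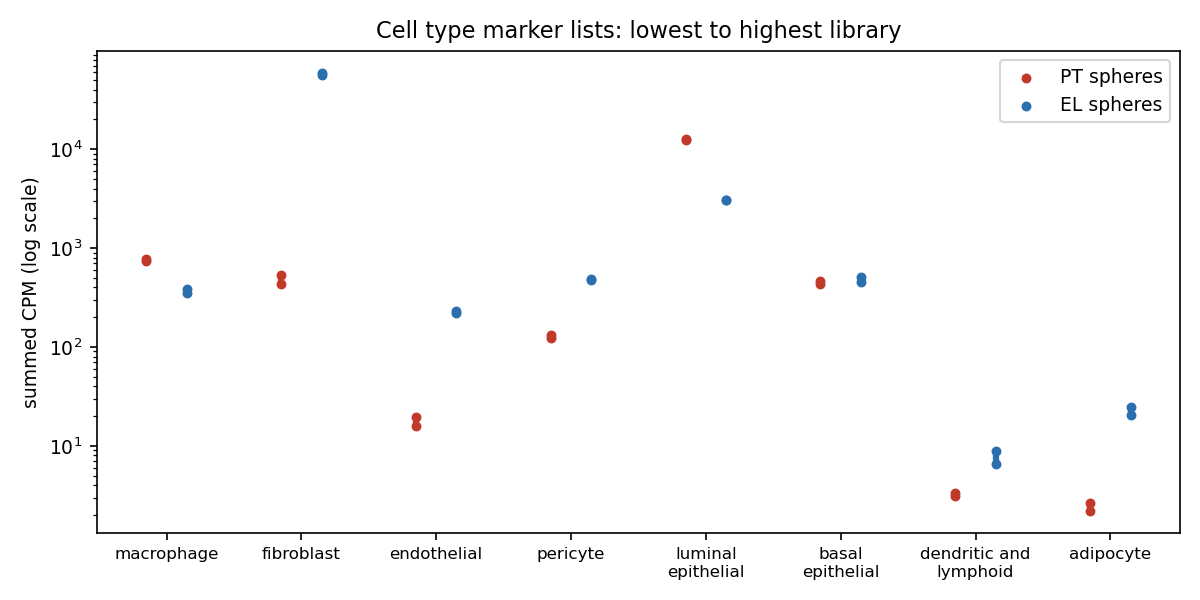
Summed CPM (log scale) of each cell type marker list, drawn from the lowest to the highest library of PT spheres (red) and EL spheres (blue). The fibroblast list differs most, at 429 to 531 CPM in PT and 55544.5 to 59317.6 CPM in EL, while the luminal and macrophage lists are higher in PT. Cd14 makes up most of the macrophage sums.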

How the data were processed

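Per the submitters' processing notes, the tools were STAR, featureCounts and DESeq2 and the genome builds hg19 and mm10. Tool versions and the strand setting are not stated there. The authors deposited raw whole-number counts per RefSeq transcript, with a gene symbol on each row and no normalisation. The rows of Axl, and those of Tyro3, have nearly equal counts, so reads appear in more than 1 row and the totals are not totals of reads. Rows present in all 6 libraries were used, with the highest transcript per symbol. Genes passing filterByExpr were tested by edgeR 4.0.16 in R 4.3.3 (TMM factors, quasi-likelihood test, Benjamini-Hochberg adjustment over all genes, threshold 0.05). CPM use TMM-scaled totals, with factors of 1.09 in PT and 0.914 to 0.922 in EL. Log2 fold changes are PT minus EL. In a test on simulated data with 13720 genes, 198 of 200 genes changed 2-fold were recovered, with 4 false calls. Between PT and EL 80.7% of genes were called, and the number of false calls with that large a share was not tested.

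Positions and transcript lengths came from GENCODE M21 on GRCm38, the build that mm10 names, and promoter windows from RefSeq (GRCm38.p6), which matched all 5 members. Ratios used a pseudocount of 0.5. Genes named are the 5 members, up to 4 genes with the smallest p per pathway list plus fixed anchor genes, and anchor genes of each marker list. Also named are 3 genes most like each member (mean count of at least 20, log2 CPM with a prior count of 2). F2, Zbtb46, Fabp4, Cd14, Oxtr, Krt14, Notch3, Flt1, Vwf, Thbs1, the surfactant genes and Tmem255b were named after their values were seen. Some genes that the rule names are not reported here. The members and lists were chosen with earlier results of these data known. Alternatives were other scaling factors, DESeq2 1.42.0, limma-voom (limma 3.58.1), a 2-fold minimum, other count filters, other transcript choices, a replicate block, complete tables only and each library left out.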

Additional observations from a re-analysis of the deposited data

How the results depend on the processing

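The 5 members kept their direction under all 18 alternatives, and their calls under the 17 other than the 2-fold minimum, where Tyro3 (0.90) and Mertk (-0.58) were not called. That minimum left 1 member higher and, over all genes, 1010 higher and 2391 lower. Library totals shifted all log2 fold changes by a median of 0.25 and made 65.8% instead of 49.5% of calls higher in PT. Axl ranged from -3.92 to -3.64, Pros1 from -2.33 to -2.07, Gas6 from 2.06 to 2.35, Tyro3 from 0.87 to 1.15 and Mertk from -0.68 to -0.33. Correlations of deviations were between -0.00216 and 0.0222 for equal replicate numbers and between -0.0309 and 0.0265 for unequal ones. With 3 libraries per group this cannot tell whether the numbers pair the libraries. With the replicate block, 5539 genes were higher and 5664 lower, and no member's call changed. The receptor shares per kilobase were 26.9% for Axl in PT and 90.0% in EL, and 8.13% for Tyro3 in EL. Named genes with small values reversed, the Ano6 log2 fold change (0.18) and the Dock1 log2 fold change (0.0933) with library totals, and the Grb2 log2 fold change with complete tables only (-0.00971). With 1 library left out, Grb2 ranged from -0.00370 without EL replicate 1 to 0.0508 without EL replicate 3. The Grb2 log2 fold change was 0.26 and called with library totals. Over the 65 named genes, 15 values of unchanged sign gained a call absent from the reported fit, all for Adam17, Ano6, Csf1r or Grb2. The Ano6 value with library totals gained a call as well, with its sign reversed. Dock1, called lower in the reported fit, was called higher with library totals. The replicate block gave 2 of the 15, Adam17 and Csf1r, and their values stand beside the results. The cause was not tested. Among the list counts, 33 moved by over 1.5 times and 255 did not. With library totals 6 exposure genes were higher against 3, 1 brake gene was higher against 0, and 5 signalling genes were lower against 8. With only the complete tables, the exposure list had 6 genes lower against 3. The other Gla proteins had 2 higher with DESeq2, with complete tables, and when EL library 1 or 3 or PT library 2 or 3 was left out, against 4, and the shedding list 2 higher under 5 alternatives against 1. The 2-fold minimum left 3 carboxylation, 1 shedding, 1 exposure, 1 engulfment, 2 signalling and 2 brake genes lower. Mertk, with at most 354 counts in a library, is the least precise member.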

Other observations

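Axl had 3 transcript rows and Tyro3 had 2, and these rows share most of their reads. The Axl row NM_001190974 had the same counts as the row used to within 1 count in every library. The row NM_001190975 had fewer, by 3.19%, 4.28% and 2.72% of the counts in PT replicates 1 to 3 and by 3.99%, 3.99% and 3.24% in EL replicates 1 to 3, so the groups overlapped. The second Tyro3 row had 25 to 32 fewer counts in PT, of 3252 to 3512, and 2 to 14 fewer in EL, of 1290 to 1466.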
